A study of Mus musculus with 84 samples.

Results

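The 9 genes described here, Muc2, Zg16, Fcgbp, Tff3, Agr2, Spdef, Retnlb, Spink4 and Muc13, make, fold or control the mucus of the mouse colon. They were taken by symbol from an RNA-seq count table of 25494 genes, and their loci, extended by 10 kb on each side, were searched for peaks of H3K27ac, H3K4me1 and HNF4a. The table held 1 row for each of the 9. All libraries came from the colon of C57BL/6 mice. For long-term feeding, males and females received a high-fat diet (HFD) or a low-fat diet (LFD), and ChIP-seq gave 3 H3K27ac and 3 H3K4me1 peak lists per sex and diet. HNF4a, a nuclear receptor of the gut epithelium, was mapped in males only, with 2 peak lists per diet. For microbiota transfer, male mice obtained germ-free were fed HFD or LFD and received by gavage a stool suspension of male donors on HFD (called HFB) or on LFD (called LFB). The 4 resulting groups were named by recipient diet and then by donor: HFDHFB, HFDLFB, LFDHFB and LFDLFB. Each had 3 RNA-seq libraries and 3 H3K27ac peak lists, except for HFDHFB with 2 peak lists, and no germ-free group without transfer was among the groups compared. The RNA was prepared from cells scraped off the colon and the chromatin from epithelium released with EDTA, so the preparations held different mixtures of cells. No source states whether RNA-seq libraries came from separate mice, so the p-values measure the spread between libraries, which may be partly technical.

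Goblet cells are the mucus-secreting cells of the intestinal epithelium. Their main product is the gel-forming mucin MUC2, which is folded and joined into large polymers in the endoplasmic reticulum and the Golgi, stored in granules and released to form a gel that keeps bacteria away from the epithelial surface. FCGBP, ZG16, TFF3 and RELM-beta (the product of Retnlb) are released with it, AGR2 is a protein disulfide isomerase needed for making MUC2, and SPDEF is a transcription factor of goblet cell maturation. MUC13 is a mucin anchored in the cell membrane and is made by absorptive cells as well as goblet cells. H3K27ac marks active promoters and enhancers, while H3K4me1 marks enhancers whether active or poised.

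The stretches upstream of the Muc2 and Retnlb starts and a pair of HNF4a sites are printed, since the largest RNA differences fell on Muc2 and Retnlb, and the only HNF4a sites present in every HNF4a library lay at Agr2 and Muc13. All are given 5′ to 3′ on the gene's strand in mouse build NCBIM37 (mm9), with short motif matches in capitals. The motifs searched on both strands were CAAAGTCCA, CAAAGTTCA, CAAAGGTCA and CAAAGGCCA for HNF4a, TTTATGG and TTTATTG for CDX2, TGACTCA for AP-1, TATAAA for a TATA box and CCGGAT for SPDEF. The printed Muc2 and Retnlb stretches hold the 250 bases before each start.
Muc2 promoter, chr7:148875989-148876238, plus strand: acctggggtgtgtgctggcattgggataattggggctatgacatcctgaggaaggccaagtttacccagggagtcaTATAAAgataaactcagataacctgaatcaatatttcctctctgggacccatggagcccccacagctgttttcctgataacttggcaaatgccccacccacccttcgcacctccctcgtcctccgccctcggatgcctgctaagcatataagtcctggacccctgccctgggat
Retnlb promoter, chr16:48816719-48816968, plus strand: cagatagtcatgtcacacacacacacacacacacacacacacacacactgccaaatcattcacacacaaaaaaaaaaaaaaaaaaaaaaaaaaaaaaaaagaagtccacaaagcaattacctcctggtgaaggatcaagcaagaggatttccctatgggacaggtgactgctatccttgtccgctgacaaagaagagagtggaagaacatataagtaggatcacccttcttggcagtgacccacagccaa
Agr2 HNF4a site, chr12:36734223-36734489, plus strand: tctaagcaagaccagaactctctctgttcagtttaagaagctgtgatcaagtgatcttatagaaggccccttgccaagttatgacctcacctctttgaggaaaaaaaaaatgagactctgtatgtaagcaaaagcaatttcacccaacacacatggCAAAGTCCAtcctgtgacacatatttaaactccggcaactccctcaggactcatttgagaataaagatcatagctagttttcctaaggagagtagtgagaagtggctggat
Muc13 HNF4a site, part outside exons, chr16:33794356-33794452, plus strand: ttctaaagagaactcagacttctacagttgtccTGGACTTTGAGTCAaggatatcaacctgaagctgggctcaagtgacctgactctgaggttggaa

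The capitals mark TATAAA in the Muc2 stretch, starting 174 bases before the gene start. None of the searched letters occurred in the Retnlb stretch, which instead carries a run of CA repeats and a run of A. Among all 24791 promoters of this length, 12.1% held TATAAA and 5.78% held a CDX2 match. The Agr2 site holds CAAAGTCCA, and in the Muc13 site the reverse complement of the same HNF4a letters overlaps a reverse AP-1 match, TGAGTCA. Of the 94219 HNF4a peaks in the 4 libraries, 17.0% held an HNF4a match and 12.4% an AP-1 match. Among the promoters not printed, Zg16 held TTTATTG and TGACTCA, Tff3 held TATAAA 30 bases before its start, Agr2 held CCATAAA and Muc13 held TGACTCA. An annotated transcript of Tff3 starts 35 bp upstream of the start used here, which places its TATAAA inside an exon. An AP-1 match was found in 3.99% of all promoters. None of the 8 promoters described, those of all members but Spink4, held an HNF4a match, found in 1.48% of all promoters, or CCGGAT, found in 5.48%.

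In the count table, the libraries held between 39904191 and 48026846 counts, and the 9 genes together took 1.34% to 2.24% of the counts of a library. Levels are given as CPM, read counts scaled to the same library size, which allows a gene to be compared between libraries but not with another gene of a different length. All 9 genes passed the filter on low counts, as did 15893 genes in all. Epithelial RNA was described with 8 genes, among them Epcam, Cdh1 and Vil1, of which all 8 were tested. Their summed level was 11024 to 16673 CPM over the 12 libraries. In libraries of such mixed cells, fewer goblet cells and less RNA per goblet cell cannot be told apart.

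**Figure D1:**
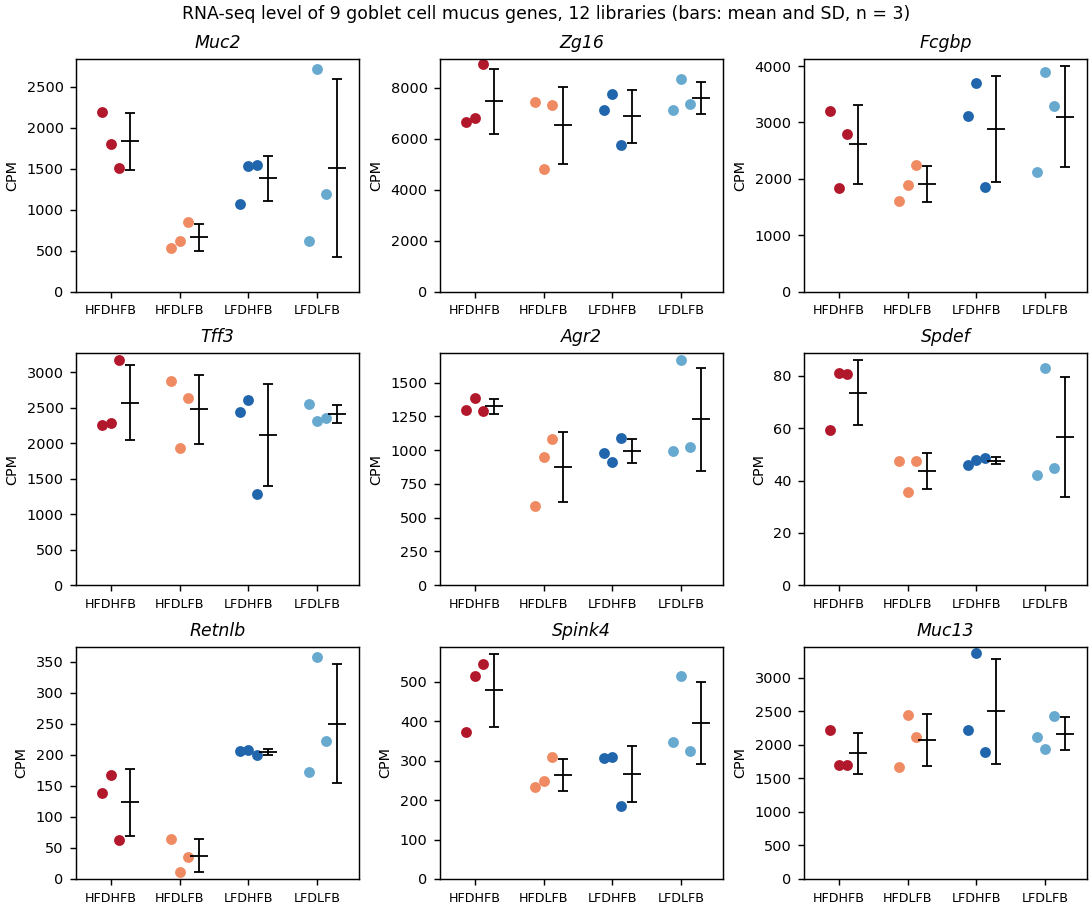
CPM of each of the 9 genes (vertical axis, from 0) in the 4 recipient groups (horizontal axis). Points are the 12 libraries and bars give the mean and SD of 3 libraries. The 3 HFDLFB libraries of Muc2 lie between 527 and 845 CPM, below all 3 HFDHFB libraries, which start at 1507 CPM.

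Muc2, the gel-forming mucin, was measured at 2192, 1796 and 1507 CPM in the HFDHFB libraries, and at 527, 613 and 845 CPM in the HFDLFB libraries. On the low-fat diet the levels were 1067, 1534 and 1543 CPM with HFB and 612, 2721 and 1193 CPM with LFB. All HFDLFB libraries were therefore below all HFDHFB and LFDHFB libraries, while LFDLFB contained both the highest value of the 12 and a value as low as HFDLFB. The group means were 1832 ± 344 CPM in HFDHFB, 1509 ± 1090 in LFDLFB, 1381 ± 272 in LFDHFB and 662 ± 165 in HFDLFB (SD, n = 3). Of the neighbours in this order, only LFDHFB and HFDLFB did not overlap, and the highest mean was 2.77 times the lowest.

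Fcgbp, a large protein bound to the mucin gel, was at 3209, 1842 and 2788 CPM in HFDHFB and at 1599, 1883 and 2241 CPM in HFDLFB. The LFDHFB libraries held 3106, 3696 and 1855 CPM and the LFDLFB libraries 2124, 3892 and 3295 CPM. The groups overlapped throughout, and the highest mean was 1.63 times the lowest. Zg16, a lectin-like protein of the mucus that binds Gram-positive bacteria, was the most even of the 9. Its group means lay between 6527 ± 1497 CPM in HFDLFB and 7607 ± 641 in LFDLFB (SD, n = 3), a ratio of 1.17, and single libraries ran from 4800 to 8930 CPM. Every pair of groups overlapped. Muc13, the membrane mucin, had its highest mean in LFDHFB (2494 ± 778 CPM) and its lowest in HFDHFB (1873 ± 305 CPM, SD, n = 3), again with all neighbours overlapping.

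Tff3, a trefoil peptide that promotes epithelial repair, did not differ beyond its spread, with means from 2111 ± 716 CPM in LFDHFB to 2568 ± 526 in HFDHFB (SD, n = 3). Its lowest library was LFDHFB replicate 3 at 1290 CPM. Retnlb, which encodes a secreted antibacterial protein of colonic goblet cells, varied most. It was at 139, 168 and 63.4 CPM in HFDHFB and at 65.0, 11.7 and 35.01 CPM in HFDLFB. On the low-fat diet it was at 206, 208 and 200 CPM with HFB and at 172, 357 and 222 CPM with LFB. All 6 libraries of mice fed LFD were thus above all 6 of mice fed HFD. The order of the means was LFDLFB, LFDHFB, HFDHFB and HFDLFB, only the middle pair of neighbours did not overlap, and the highest mean was 6.73 times the lowest.

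Spink4, a Kazal-type peptide whose family inhibits serine proteases, was at 373, 515 and 546 CPM in HFDHFB and at 234, 248 and 310 CPM in HFDLFB. The LFDHFB libraries held 306, 309 and 185 CPM and the LFDLFB libraries 348, 514 and 325 CPM. HFB libraries were thus all above LFB libraries on the high-fat diet and all below them on the low-fat diet. Agr2, the disulfide isomerase, was at 1298, 1389 and 1288 CPM in HFDHFB, at 584, 951 and 1086 in HFDLFB, at 981, 916 and 1091 in LFDHFB and at 993, 1667 and 1023 in LFDLFB. The 3 HFDHFB libraries lay above all libraries of the other groups except LFDLFB replicate 2. Spdef, the transcription factor, was low at 59.1, 81.1 and 80.6 CPM in HFDHFB, 47.6, 35.5 and 47.4 in HFDLFB, 45.9, 47.99 and 48.6 in LFDHFB and 42.0, 83.1 and 44.7 in LFDLFB. As for Agr2, the HFDHFB libraries were above all others except LFDLFB replicate 2. Both genes had the order of means HFDHFB, LFDLFB, LFDHFB and HFDLFB, and no pair of neighbours was free of overlap. LFDLFB replicate 2 held the highest value of the 12 for Muc2, Fcgbp, Agr2, Spdef and Retnlb.

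The donor's diet was compared within each recipient diet. On the high-fat diet, 8 of the 9 genes had a higher mean with HFB than with LFB, with a median log2 fold change of 0.60. Over all 15893 genes tested, 49.7% were positive and the median was -0.00. The largest differences were those of Retnlb (3.31-fold higher in HFDHFB, log2 1.73, SE 0.53), Muc2 (2.77-fold, log2 1.47, SE 0.44), Spink4 (1.81-fold, log2 0.86, SE 0.25), Spdef (log2 0.76, SE 0.24) and Agr2 (log2 0.60, SE 0.25). For Fcgbp, Zg16 and Tff3 the log2 values were 0.45, 0.20 and 0.05, and for Muc13, the only one with a lower mean in HFDHFB, -0.15. None of the 9 passed an adjusted p of 0.05 in edgeR's quasi-likelihood test, nor did any other gene (0% called). The adjusted p was 0.495 for Muc2, Spdef, Retnlb and Spink4 and 0.519 for Agr2. At an unadjusted p under 0.05, the same 5 members passed by edgeR (Spink4 0.00523, Muc2 0.0064, Retnlb 0.00752, Spdef 0.00937 and Agr2 0.0351), as did 1441 genes, or 9.07% of those tested. DESeq2 called 80 genes (0.486% of those with an adjusted p) but no member, with adjusted p of 0.0846 for Muc2, 0.0902 for Retnlb and 0.104 for Spink4. Over all alternatives the edgeR and DESeq2 adjusted p of these 3 genes lay between 0.0846 and 0.971. The HFDHFB and HFDLFB libraries did not overlap for Muc2, Agr2, Spdef and Spink4, 4 of the 9, against 13% of all genes tested. Without HFDLFB replicate 1, the library with the lowest Muc2 and Agr2, the median over the 9 was 0.38, and it was at most 0.80 without any other library of these groups.

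On the low-fat diet, 8 of the 9 genes had a lower mean with HFB than with LFB, and the median log2 fold change was -0.19, beside 0.02 for all genes. The values ran from -0.57 for Spink4 to 0.21 for Muc13, with -0.13 for Muc2 and -0.29 for Retnlb. No member passed by edgeR (0% of all genes called), and 1, Spink4, had an unadjusted p under 0.05 (0.0414, adjusted p 0.975), beside 592 genes in all (3.72%). DESeq2 called 0% as well. Spink4 was also the only member whose LFDHFB and LFDLFB libraries did not overlap, against 10.8% of all genes. These values rested partly on LFDLFB replicate 2. Without it, the median over the 9 genes was 0.05 and the log2 fold change of Muc2 was 0.61, while that of Spink4 was -0.34.

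The difference between the donor effects on the 2 diets was then tested as an interaction, which uses the same 12 libraries and is not independent of the comparisons above. It was positive for 8 of the 9 genes, with a median log2 difference of 0.90 beside -0.05 for all genes, of which 45.7% were positive. The values were 2.02 (SE 0.74) for Retnlb, 1.60 (SE 0.61) for Muc2, 1.43 (SE 0.35) for Spink4, 1.01 (SE 0.34) for Spdef, 0.90 (SE 0.35) for Agr2 and -0.35 for Muc13. By edgeR, 0% of genes were called and the smallest adjusted p among members was 0.386, for Spink4 (unadjusted 0.00178) and Spdef (0.0127). At an unadjusted p under 0.05, edgeR had 5 members and 1794 genes (11.3%). DESeq2 called 73 genes, 0.692% of those with an adjusted p, and among them Spink4 (log2 1.41, adjusted p 0.0407). Over the alternatives for Spink4, the log2 difference lay between 1.16 and 1.58 and the adjusted p by edgeR or DESeq2 between 0.0407 and 0.655, with DESeq2 alone past the threshold.

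The recipient's diet was compared under each donor, in the same libraries. Under HFB, 6 members had a higher mean on HFD and 3 a lower one, with a median log2 fold change of 0.28, beside -0.03 for all genes. Spink4 was 1.79-fold higher in HFDHFB (log2 0.84, SE 0.25, edgeR adjusted p 0.407), Spdef was higher by log2 0.63 and Retnlb was lower (log2 -0.73, SE 0.52, edgeR adjusted p 0.835). Agr2, Spdef and Spink4 in one direction and Retnlb in the other made up 4 members whose libraries did not overlap, against 11% of all genes. None passed by edgeR (0% called), and 2 members and 1186 genes (7.46%) had an unadjusted p under 0.05. DESeq2 called 126 genes (1.05%) and no member.

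Under LFB, 8 of 9 members had a lower mean on HFD, with a median log2 fold change of -0.49, beside 0.00 for all genes. Retnlb was 6.73-fold lower in HFDLFB than in LFDLFB (log2 -2.75, SE 0.55), the third smallest p of all genes by edgeR (0.00039), with an adjusted p of 0.881. Muc2 was 2.28-fold lower (log2 -1.19, SE 0.44) with overlapping libraries, and without LFDLFB replicate 2 its value was -0.45. Fcgbp had a log2 fold change of -0.70, Spink4 of -0.58 and Agr2 of -0.49. edgeR called 0% of genes, with 4 members (Muc2, Fcgbp, Retnlb and Spink4) and 847 genes (5.33%) at an unadjusted p under 0.05. DESeq2 called 9 genes (0.0463%), of which Retnlb was 1 (log2 -2.74, adjusted p 0.00138). Over all alternatives the Retnlb value lay between -3.42 and -2.33 and its edgeR or DESeq2 adjusted p between 0.00138 and 0.999, with DESeq2 alone past the threshold. The groups did not overlap for Retnlb and Spink4, 2 of 9, against 11.7% of all genes.

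**Figure D2:**
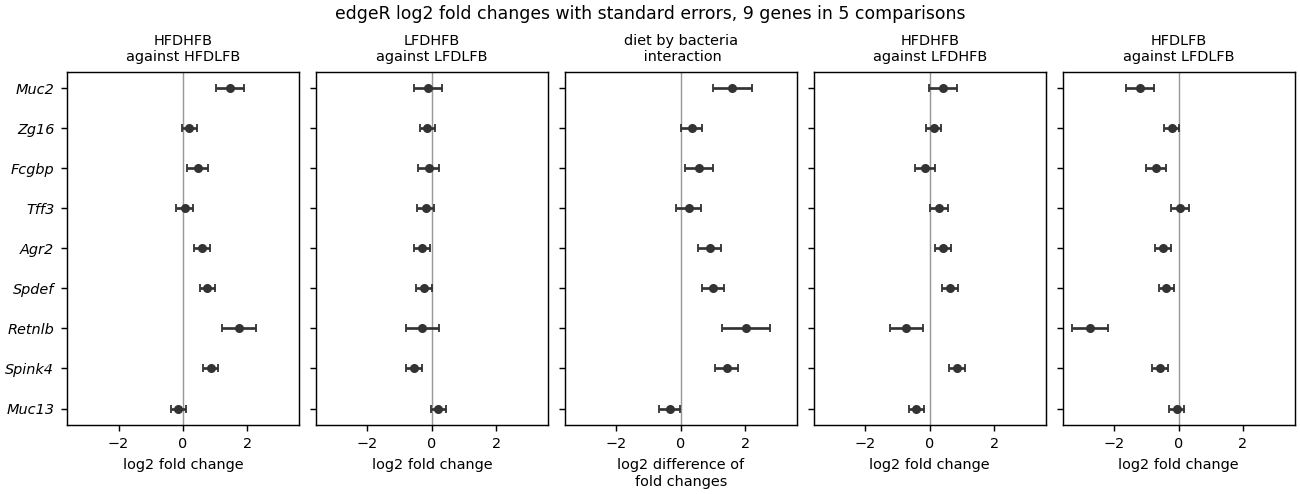
Log2 fold changes (horizontal axis; for the interaction, the log2 difference of fold changes) of the 9 genes in 5 comparisons by edgeR, with standard errors as bars. In the HFDHFB against HFDLFB panel, 8 of 9 points lie to the right of 0, and in the LFDHFB against LFDLFB panel 8 of 9 lie to the left.

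Markers of other cell types differed between the same libraries, and their part in the results above was not tested. The summed level of 8 mesothelial genes was 414, 518 and 99.8 CPM in the HFDLFB libraries and 54.0 to 111 CPM in HFDHFB, and all 8 had a lower level in HFDHFB (median log2 fold change -2.17). The 8 adipocyte genes summed to 1203, 2830 and 382 CPM in HFDLFB and to 115 to 455 CPM in HFDHFB (median -3.08, 1 of 8 positive). Both lists were thus highest of all 12 libraries in HFDLFB replicates 1 and 2. So were the fibroblast genes, at 1716 and 1612 CPM, and the leukocyte genes, at 587 and 621 CPM. For leukocytes, LFDLFB replicate 3 was close at 579 CPM. The lists of smooth muscle, endothelium and enteric neurons and glia were not highest in both of these replicates. Of the 3 HFDLFB libraries, replicates 1 and 2 held the lower levels of Muc2, Fcgbp, Agr2 and Spink4. For Zg16, Tff3, Spdef and Retnlb, replicate 1 held the highest level and replicate 2 the lowest. Spdef was nearly equal in replicates 1 and 3, at 47.6 and 47.4 CPM. For Muc13, replicate 1 held the lowest level and replicate 2 the highest. Under LFB, against LFDLFB, the medians were 1.56 for mesothelium and 3.21 for adipocytes. Genes of proliferating cells summed to 198 to 338 CPM in HFDHFB and to 85.3, 214 and 220 CPM in HFDLFB, with all 8 higher in HFDHFB (median 0.71). The 8 epithelial genes were at 13435 to 16081 CPM in HFDHFB and at 11024 to 14229 CPM in HFDLFB (median 0.14, 7 of 8 positive). When the libraries were scaled to these epithelial genes, the median over the 9 mucus genes was 0.41 on the high-fat diet, with Tff3 turning to -0.11, and -0.09 on the low-fat diet, with Muc2 turning to 0.04. The interaction median was then 0.54, with Tff3 at -0.01.

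For HFDHFB against HFDLFB, the remaining lists of 8 markers had median log2 fold changes of -0.16 for absorptive colonocytes (2 positive), 0.32 for enteroendocrine cells (7 positive), -0.45 for leukocytes (0 positive), -0.25 for fibroblasts (2 positive), 0.77 for smooth muscle (8 positive), -0.44 for endothelium (0 positive) and 0.25 for enteric neurons and glia (5 positive). Of the tuft cell markers, 7 were in the table, with a median of 0.27. Smooth muscle genes summed to 1229 to 7493 CPM over the libraries of these groups. No marker gene of any list passed by edgeR in any of the 5 comparisons, and no marker was at 0 in all libraries.

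**Figure D3:**
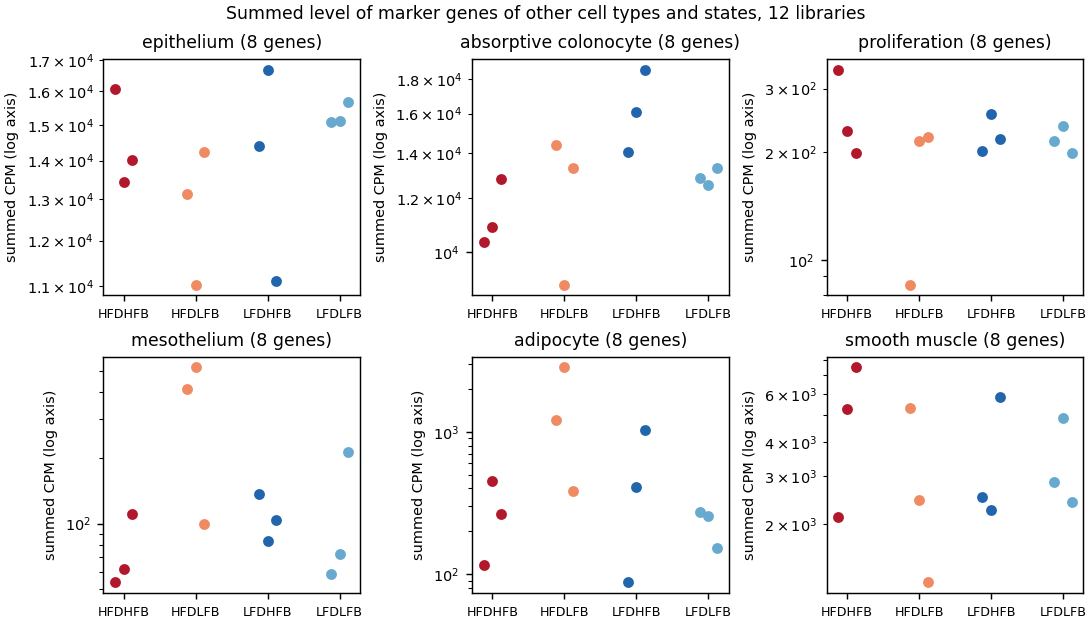
Summed CPM of marker genes of other cell types and of proliferating cells (vertical axis, log scale) in the 12 libraries, by recipient group (horizontal axis). HFDLFB replicates 1 and 2 stand above all other libraries for mesothelium, at 414 and 518 CPM, and for adipocytes, at 1203 and 2830 CPM.

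Other genes of the mucus pathway were described by lists for HFDHFB against HFDLFB, where no gene was called in either direction by edgeR. The counts below of genes higher at an unadjusted p under 0.05 stand beside 9.07% of all genes tested with such a p in either direction, and those of positive genes beside 49.7% of all. Of 11 further secreted mucus products, 7 were tested, with a median log2 fold change of 0.23, 5 positive and 1 higher at an unadjusted p under 0.05. Clca1, a metalloprotease abundant in mucus, was at 6235 ± 2235 CPM in HFDHFB and 5318 ± 823 in HFDLFB (log2 0.23, SE 0.36). Ang4, an antimicrobial ribonuclease of a family of near copies whose reads may be shared, was at 277 ± 127 and 135 ± 112 CPM (log2 1.03, SE 0.58). Dmbt1, a scavenger receptor protein of mucosal secretions, had a log2 value of -0.26. Among membrane mucins, 3 of 7 were tested, and Muc4 had 1.05 (SE 0.42, edgeR adjusted p 0.502), Muc1 -0.27 and Muc20 0.01. The glycosyltransferases of mucin synthesis had a median of 0.15 (15 tested, 10 positive, 4 higher at an unadjusted p under 0.05), with 0.23 for Gcnt3, -0.12 for B3galt5 and -0.05 for B4galnt2.

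Genes of protein folding and of the unfolded protein response had a median of 0.14 (13 tested, 10 positive, 4 higher at an unadjusted p under 0.05). Here Xbp1, the transcription factor of that response, was at 0.06, the chaperone Hspa5 at -0.13 and the disulfide isomerase Txndc5 at 0.50 (SE 0.20). The list of goblet cell factors held transcription factors of goblet cell formation or of the gut epithelium, whichever way they act on goblet cells. It had a median of 0.35 (12 tested, 10 positive, 2 higher at an unadjusted p under 0.05). Klf4 was at 0.10, Cdx1 at 0.33 and Hnf4a at -0.11. Genes of granule release and mucus processing had a median of 0.09 (19 tested, 13 positive, 2 higher at an unadjusted p under 0.05), with Nlrp6 at -0.18, Mep1a at -0.07 and Tgm3 at -0.29. Beside the 0.60 of the 9 members, the list medians were thus between 0.01 for membrane mucins and 0.35 for goblet cell factors.

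In the interaction, the list medians were 0.34 for secreted products, 0.34 for membrane mucins, -0.00 for glycosyltransferases, 0.32 for folding, 0.50 for goblet cell factors and 0.05 for release. For HFDLFB against LFDLFB, they were -0.50, -0.06, -0.04, -0.14, -0.26 and -0.07 in the same order. Goblet cell factors thus had the highest median of the 6 lists in the interaction, with 10 of 12 genes positive and 4 higher at an unadjusted p under 0.05, where 45.7% of all genes were positive, 11.3% had such a p in either direction and edgeR called none.

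The genes whose log2 CPM followed Muc2 most closely over the 12 libraries were Cdc42ep4 (Pearson r 0.89), P4hb, which encodes a protein disulfide isomerase (0.89), Rpn2, a subunit of the oligosaccharyltransferase (0.89), Slc9a5, Rnf26, Traip, Kif12, Lmnb1, the mucin Muc4 and the glycosyltransferase Galnt12 (0.86). Among the members, r with Muc2 was 0.80 for Agr2 (rank 48 of all genes tested), 0.75 for Spdef, 0.62 for Fcgbp, 0.60 for Retnlb and 0.54 for Spink4. For Zg16 it was 0.32, for Muc13 -0.00 and for Tff3 -0.18. These correlations are descriptions over 12 libraries that share group differences and tissue mixture.

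Peaks of the histone marks were compared by the length covered at each locus, since the peak lists hold no read counts and the depth behind them is unknown. The lists held 38317 to 51873 H3K27ac peaks, 71853 to 79511 H3K4me1 peaks and 21308 to 27766 HNF4a peaks per library. The windows of the 9 genes were 21822 to 84361 bp wide. Those of Zg16, Fcgbp, Tff3, Spdef, Spink4 and Muc13 also overlapped a neighbouring gene (Kif22, 9530053A07Rik, Abcg1, Pacsin1, Bag1 and Itgb5), to which a peak may belong.

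Agr2 at chr12:36719512-36730668 was the most widely covered of the 9 in the long-term libraries. H3K27ac covered 59.4% of its window, more than at 98.5% of all loci, and H3K4me1 covered 74.0%. Muc13 (chr16:33794123-33820013) followed with 50.2% and 51.6%, and Spdef (chr17:27851392-27865896, minus strand) with 41.2% and 64.3%. The median over all loci was 5.06% for H3K27ac and 13.6% for H3K4me1. Tff3 (chr17:31262251-31266556, minus strand), Zg16 (chr7:134193670-134195491, minus strand) and Spink4 (chr4:40867089-40878428) had H3K27ac over 26.7%, 24.8% and 24.1% of their windows. Muc2 (chr7:148876239-148940599) and Fcgbp (chr7:28856255-28905883), both long genes, had 9.25% and 7.23%.

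Retnlb (chr16:48816969-48819005) stood apart from the other 8. It had no H3K27ac peak in its window in 21 of the 23 libraries, and in the remaining pair, LFD male replicate 2 and LFDLFB replicate 2, 2000 and 1400 bp were covered. H3K4me1 nevertheless covered 40.8% of its window, more than at 85.5% of loci. These H3K4me1 peaks lay on both sides of the gene and never over its start. The start of Agr2, Spdef and Muc13 was under an H3K27ac peak in all 23 libraries, which held for 3 of the 9 genes and for 38.0% of all loci. The start of Zg16 and Spink4 was covered in 22 libraries, that of Muc2 in 21, Tff3 in 16 and Fcgbp in 15. H3K4me1 lay over the start in all 12 libraries at Muc2, Fcgbp, Agr2, Spink4 and Muc13 (5 of 9, against 14.9% of loci), in 11 at Tff3, in 4 at Spdef and in none at Zg16.

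**Figure D4:**
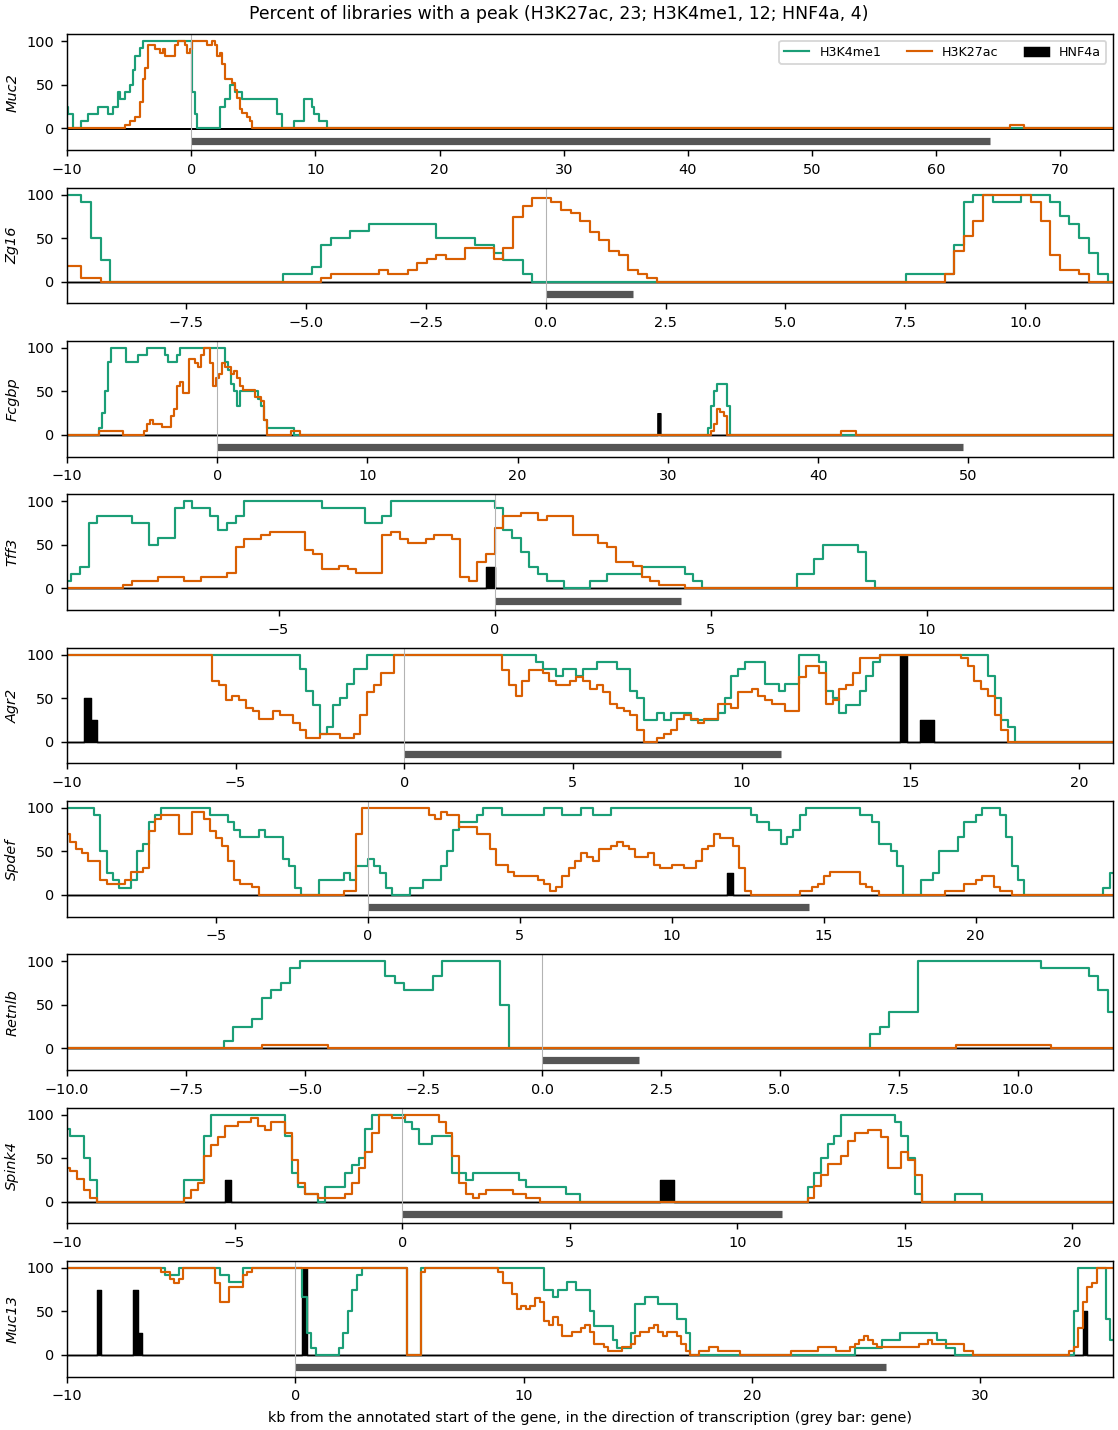
Percent of libraries with a peak (vertical axis) against distance from the gene start in kb (horizontal axis) for H3K27ac (23 libraries), H3K4me1 (12) and HNF4a (4) at the 9 loci. At Retnlb the H3K27ac line stays near 0 while H3K4me1 peaks lie on both sides of the gene, and at Agr2 both marks cover most of the window.

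The long-term diets were compared over both sexes with an exact permutation test of the covered length, with diets permuted within each sex. Fcgbp had the smallest p among the 9 for H3K27ac. Its covered length in HFD males was 5600, 6400 and 6200 bp and in LFD males 4800, 4400 and 4000 bp. In HFD females it was 7400, 5800 and 4600 bp and in LFD females 1400, 4800 and 5000 bp. Males of the 2 diets did not overlap and females did. The mean was 6000 ± 930 bp on HFD and 4067 ± 1355 bp on LFD (SD, n = 6), with a two-sided exact permutation p of 0.015 and an adjusted p of 1.0 over all loci. In both sexes together no member was free of overlap in the same direction, against 0.335% of loci for H3K27ac and 0.295% for H3K4me1. The smallest p this test allows is 0.005, and no locus passed after adjustment. Leaving out HFD female replicate 3 made Fcgbp the 1 member free of overlap in both sexes, when 0.637% of loci were. The H3K27ac mean was higher on HFD for 7 of the 9, as it was for 66.0% of all loci, and the H3K4me1 mean was higher for 3 of the 9, against 50.7%.

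Within one sex, 3 libraries against 3 cannot give an exact permutation p below 0.1. Among males, Fcgbp was the 1 member whose diets did not overlap for H3K27ac, against 5.41% of loci. For H3K4me1 the 1 such member was Retnlb, against 7.77% of loci, with 8200, 6800 and 8800 bp in HFD males and 11000, 10200 and 9200 bp in LFD males. In females its lengths overlapped, at 8200, 10400 and 8000 bp on HFD and 8600, 8200 and 10200 bp on LFD. Among females no member was free of overlap for H3K27ac, where 12.5% of all loci were. For H3K4me1 in females it was Spink4, against 8.68% of loci, with 9912, 12112 and 8912 bp on HFD and 7800, 6712 and 8600 bp on LFD. Males overlapped at Spink4, with 8712, 7112 and 12512 bp on HFD and 12712, 8112 and 10112 bp on LFD. Leaving out single libraries, which leaves 2 against 3, moved these counts by 1 or 2, while it raised the share of all loci free of overlap. For H3K27ac in males the count was 2 without HFD replicate 1 or LFD replicate 1 (11.1% to 16.4% of loci over the libraries left out), and for H3K4me1 in males it was 2 without replicate 1 or 3 of either diet (14.9% to 17.0% of loci). For H3K27ac in females it was 1 without replicate 1 or 3 of either diet and 2 without HFD replicate 2 (19.4% to 23.3% of loci). For H3K4me1 in females it was 2 without HFD replicate 1 or LFD replicate 3 and 3 without HFD replicate 2 (17.0% to 17.9% of loci).

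**Figure D5:**
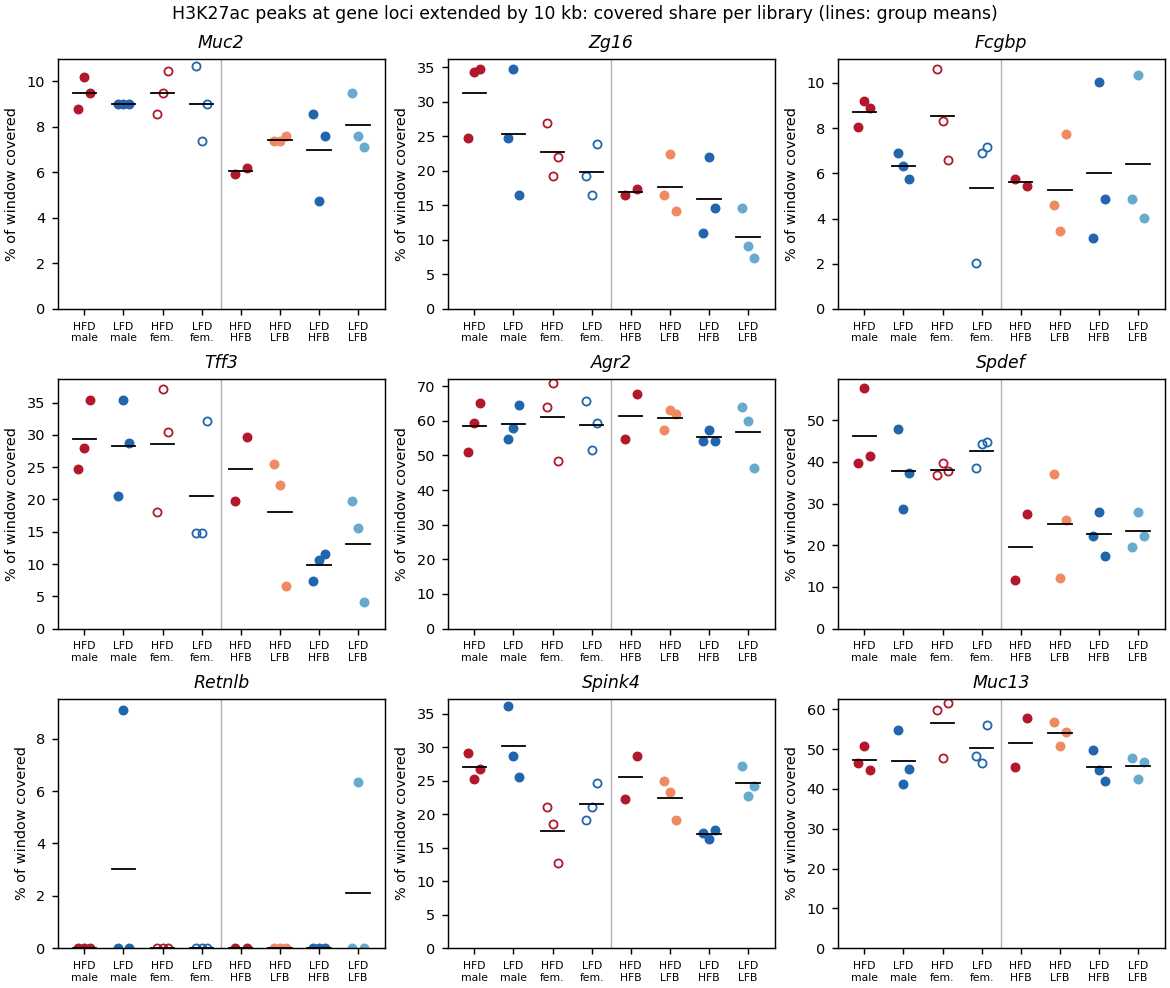
Share of each locus, extended by 10 kb, under H3K27ac peaks (vertical axis, percent, from 0) by group (horizontal axis; long-term diets left of the grey line, recipients right of it). Points are libraries and lines are group means. Agr2 lies between 46.5% and 70.9% in all 23 libraries, while Retnlb is at 0 in 21 of them.

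In the recipients, Muc2 was covered by H3K27ac over 5000 and 5200 bp in the HFDHFB libraries and over 6200, 6200 and 6400 bp in the HFDLFB libraries. The groups did not overlap and the group with the higher Muc2 RNA had the shorter covered length (5100 ± 141 bp, n = 2, against 6267 ± 115 bp, SD, n = 3, exact permutation p 0.1, the smallest this design allows). No other member was free of overlap here, against 13.4% of all loci. Without HFDHFB replicate 1 or 2, a single library is left against 3, and 5 and 4 members were then free of overlap, as were 46.7% and 50.9% of all loci. Without HFDLFB replicate 3 the count was 2, against 23.2% of loci. Spink4 was covered over 5400, 5112 and 5512 bp in LFDHFB and over 8512, 7112 and 7600 bp in LFDLFB, so that H3K27ac and RNA were both lower in LFDHFB. It was the 1 member free of overlap in that comparison, against 6.85% of loci (exact permutation p 0.1, also the smallest allowed). The count was 2 without LFDLFB replicate 1, against 14.3% of loci, and 3 without LFDLFB replicate 3, against 20.4%. In HFDHFB and HFDLFB, Spink4 overlapped, with 7000 and 9000 bp against 7800, 7312 and 6000 bp. With HFB, 4 members had a longer mean and 4 a shorter mean on HFD, and 1 had a longer and 8 a shorter mean on LFD, where 45.6% and 40.6% of all loci had a longer mean. All H3K27ac peaks of a library covered 107 to 132 Mb in HFDHFB, 115 to 123 Mb in HFDLFB, 98.8 to 105 Mb in LFDHFB and 93.1 to 117 Mb in LFDLFB.

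HNF4a peaks fell in the windows of 6 of the 9 genes in at least 1 library (66.7%, against 64.0% of all loci). A peak was present in all 4 libraries at 2 of the 9, Agr2 and Muc13, against 27.1% of all loci. Muc2, Zg16 and Retnlb had none. The Agr2 site printed above lay 14.8 kb from the gene start and 3.69 kb past the gene end, between genes, and was under H3K27ac in all 23 libraries and under H3K4me1 in all 12. The printed Muc13 site lay 0.368 kb downstream of the start, also under both marks in every library. A further pair of Muc13 sites, at -8.58 and -6.93 kb from the start, were each found in 3 libraries, and one 34.6 kb downstream, with the HNF4a letters TGAACTTTG, in 2.

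A second Agr2 site, at -9.31 kb from the start, was present in both LFD libraries and in no HFD library, which 2 libraries per diet do not allow to be tested at an exact p of 0.05. All remaining sites were found in 1 library each. These were at Fcgbp 29.4 kb downstream (HFD), at Tff3 over the gene start (LFD) and at Spdef 11.9 kb downstream (HFD). The others were at Agr2 15.5 kb downstream (LFD) and at Spink4 at -5.22 kb and at 7.89 kb (both LFD). The Spdef site overlapped a coding exon at one end, and its TGACCTTTG lay in the 214 bases outside exons. The downstream Spink4 site held TGAACTTTG in an intron. Neither this site nor the Fcgbp site was under a histone mark in any library.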

How the data were processed

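The series held 84 samples, of which 33 were input controls without files used here, 39 gave peak lists and 12 gave RNA-seq counts. The authors deposited raw read counts per gene, made with STAR 2.5 and featureCounts 1.5.0-p1 per the submitters' processing notes, and peak lists from Bowtie 0.12.8, Picard 1.110, SICER (histone marks) and HOMER (HNF4a), on mm9. Whether counting used strand is not given in the sources used here. The deposited peak lists hold positions without scores, signal or coverage, called per library, so that only the covered length was used, in windows of 200 bp for the histone marks.

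Counts were tested with edgeR 4.0.16 in R 4.3.3 (TMM, filterByExpr, quasi-likelihood test, 4 groups in 1 fit, Benjamini-Hochberg over all genes tested), with DESeq2 1.42.0 as an alternative. For peaks, covered base pairs per locus extended by 10 kb were compared by exact permutation in Python 3.11.15 with numpy 2.4.6. Groups not overlapping means that every library of one lies above every library of the other. Further alternatives were other size factors, no filter, only the compared groups, a replicate block, scaling to epithelial markers, no extension or 50 kb, the number of peaks, and leaving out each library. The scripts were tested on simulated data. The libraries of a group were checked for duplicates and none was found.

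Members and gene lists were chosen with earlier results of these data known. Named are all 9 members, the 3 genes of highest mean CPM of each pathway list, and the 10 genes of highest correlation with Muc2. Sequences were read from the NCBIM37 genome, and 5 members were also in the RefSeq promoter table of GRCm38.p6, where the 50 bases compared were the same. No promoter was read for loci on sequences absent from that genome, and 160 loci lay outside its chromosomes. The promoter of Spink4 is not reported here.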

Additional observations from a re-analysis of the deposited data

Results flagged for a closer look

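The donor difference of Spink4 had opposite directions on the 2 diets, with every HFDHFB library above every HFDLFB library and every LFDHFB library below every LFDLFB library. The difference between the 2 effects was 1.43 on the log2 scale (SE 0.35, edgeR adjusted p 0.386, DESeq2 adjusted p 0.0407), so that it was called by DESeq2 and not by edgeR. On the low-fat diet the gap was narrow, from 309 CPM in the highest LFDHFB library to 325 CPM in the lowest LFDLFB library. The lowest Spink4 level was that of LFDHFB replicate 3, at 185 CPM. The counts of this library were unlike those of its group. Its mean chi-square per gene was 377 and 381 against replicates 1 and 2, beside 42.4 to 157 for the other pairs within groups.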

How the results depend on the processing

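Of 585 values of single members under alternatives, 559 kept their direction and side of the threshold, 24 changed sign, none of them called, and 2 became called. The latter were DESeq2 calls, 1 member in the interaction (Spink4) and 1 in HFDLFB against LFDLFB (Retnlb). DESeq2 called 80, 0, 73, 126 and 9 genes in the 5 comparisons where edgeR called 0. Scaling to epithelial markers turned Tff3 to -0.11 in HFDHFB against HFDLFB and to -0.014 in the interaction, Muc2 to 0.039 in LFDHFB against LFDLFB, and Zg16 to 0.023 and Muc13 to 0.23 in HFDLFB against LFDLFB. Leaving out single libraries gave log2 ranges that span 0. In HFDHFB against HFDLFB, Tff3 ran from -0.16 to 0.17, and in the interaction from -0.017 to 0.37. In LFDHFB against LFDLFB, Muc2 ran from -0.49 to 0.61, Fcgbp from -0.31 to 0.13, Tff3 from -0.35 to 0.068, Spdef from -0.41 to 0.13, Retnlb from -0.49 to 0.054 and Muc13 from -0.050 to 0.37. In HFDHFB against LFDHFB, Zg16 ran from -0.050 to 0.19 and Fcgbp from -0.38 to 0.058. In HFDLFB against LFDLFB, Tff3 ran from -0.074 to 0.19, Spdef from -0.53 to 0.0053 and Muc13 from -0.20 to 0.072. The cause of these changes was not tested.

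The number of members whose peak lengths did not overlap depended on the window. With 50 kb it was 0 for H3K27ac in males (5.12% of all loci), 3 for H3K4me1 in males (8.25%), 2 for H3K27ac in females (18.0%), 0 for HFDHFB against HFDLFB (12.4%) and 0 for LFDHFB against LFDLFB (6.99%). With no extension it was 0 for H3K4me1 in males (6.66%), 0 for H3K4me1 in females (7.64%) and 0 for LFDHFB against LFDLFB (6.18%). By the number of peaks it was 0 for H3K27ac in males (1.65%), 0 for H3K4me1 in males (2.61%) and females (3.04%) and 0 for LFDHFB against LFDLFB (2.4%). The members with an HNF4a peak in all 4 libraries were 1 with no extension (14.7% of all loci) and 4 with 50 kb (53.3% of all loci). Without single libraries the counts ran from 0 to 1 for H3K27ac in both sexes (0.509% to 1.69% of all loci). In males they ran from 1 to 2 for H3K27ac (11.1% to 16.4%) and for H3K4me1 (14.9% to 17.0%). In females they ran from 0 to 2 for H3K27ac (19.4% to 23.3%) and from 1 to 3 for H3K4me1 (17.0% to 17.9%). For HFDHFB against HFDLFB they ran from 1 to 2 without an HFDLFB library (22.7% to 24.6%). For LFDHFB against LFDLFB they ran from 1 to 3 (13.7% to 20.4%).

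No pairing of the RNA-seq libraries by replicate number was seen in the deviations of log2 CPM from the group means. Their correlations were -0.59 to 0.45 between same-numbered and -0.55 to 0.65 between other libraries of different groups. With 3 libraries per group, such overlapping ranges cannot exclude a pairing. With a replicate block, edgeR called 0 members and 0 genes in every comparison (median log2 values of the members 0.63, -0.19, 0.90, 0.29 and -0.50), and 0 members passed for the histone marks (smallest exact permutation p 0.0625 for H3K27ac and 0.156 for H3K4me1). Depth is unknown for the peak lists, and 3 libraries per group limit what the RNA-seq test can call.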

Other observations

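At some mucus gene loci, the H3K27ac length reached lower values in the 11 libraries of microbiota recipients than in the 12 libraries of mice on long-term diets. The ranges overlapped at each of these loci, and the share of all loci with such a difference was not counted. Recipients and long-term mice differed in origin, feeding and handling, and all recipients were male while 6 of the long-term libraries came from females, so the difference was not tested and cannot be told apart from these. At Spdef, the transcription factor of goblet cell maturation, the covered length was 9896 to 19896 bp in the long-term libraries and 4000 to 12800 bp in the recipients. At Zg16, the lectin-like mucus protein, it was 3600 to 7600 bp and 1600 to 4891 bp. At Tff3, the trefoil peptide, it was 3600 to 9000 bp and 1000 to 7200 bp. At Agr2 the ranges were alike, at 15089 to 22089 bp and 14489 to 21089 bp, as they were at Muc13, at 18891 to 28291 bp and 19291 to 26491 bp. Muc2 was at 6200 to 9000 bp and 4000 to 8000 bp, and Fcgbp at 1400 to 7400 bp and 2200 to 7200 bp. Spink4 was at 4000 to 11312 bp and 5112 to 9000 bp, and Retnlb at 0 to 2000 bp and 0 to 1400 bp. All H3K27ac peaks of a library together covered 100.2 to 127 Mb in the long-term libraries and 93.1 to 132 Mb in the recipients.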
